A study of Sus scrofa with 40 samples.

Results

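Drug and xenobiotic metabolism enzymes were followed across liver and backfat of pigs from 2 selection lines under 2 diets. The members were every probe set whose single gene symbol on the array began with CYP and a number, UGT1 or UGT2, GSTA, GSTM, GSTO, GSTP, GSTT or GSTZ, MGST, FMO and a number, or SULT and a number. CYP2B22, CYP51, CYP51A1 and CYP7A1 were left out by the rule. It gave 60 probe sets of 38 genes among 23999 probe sets, of which 10069 carried a single symbol. A further 7 probe sets matched the letters but carried several symbols and were not used. The rule reads names and no measured value, but it was set with earlier results of these data known.

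The pigs were prepubertal Yorkshire gilts, 6 months old, from lines with low or high residual feed intake (RFI), the feed a pig eats beyond what its growth and upkeep predict. Low RFI means high feed efficiency. In each line pigs were fed ad libitum or, for 8 days, restricted to 80% of maintenance feed, and the labels describe the pigs of all groups as chosen for being heterozygous at an MC4R variant, except that the label of 1 array says only that specific genotypes were taken. Liver and backfat, the latter from its middle layer at the tenth rib, were measured on Affymetrix arrays, with 5 pigs in each of the 8 groups of tissue, line and diet and 40 arrays in all. The labels number the pigs of a group from 1 to 5 but do not say which liver and backfat arrays came from the same pig, so tissues were compared as separate samples. A difference in a bulk sample can come from the number of cells of a type or from RNA per cell, and these cannot be told apart here.

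Enzymes of this kind clear foreign and internal small molecules in steps. Cytochrome P450 (CYP) and flavin-containing monooxygenase (FMO) enzymes oxidise a compound, and glucuronosyltransferases (UGT), glutathione S-transferases (GST, and the membrane-bound MGST) and sulfotransferases (SULT) then attach a polar group so that it can be excreted. The liver is the main organ for this work, and several CYP families outside drug metabolism make steroid hormones, bile acids and active vitamins instead.

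Of the 60 probe sets, 20 (15 genes) belonged to P450s that act on foreign compounds and 14 (4 genes) to P450s of steroid hormone synthesis. P450s of sterols, bile acids and vitamin D had 7 (5 genes), and the retinoic acid hydroxylase CYP26A1 had 1. The conjugating enzymes had 9 for GSTs (5 genes), 3 for SULTs (3 genes), 2 for MGSTs (2 genes) and 2 for UGTs (UGT2B31 alone). FMO1 and FMO5 had 1 each. In the RefSeq annotation of the pig genome assembly Sscrofa11.1, CYP3A22, CYP3A46 and CYP3A29 lie side by side, as do CYP19A3 and CYP19A1 and also CYP2C42 and CYP2C91. Such neighbours are often near-identical copies, so a probe set of one may also bind the transcript of another.

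Intensities were scaled to a common trimmed mean, between 500.09 and 500.15 on the 40 arrays, and array medians ran from 127 to 191. A probe set was tested within a tissue when it exceeded the array's 40th percentile on at least 5 of the 20 arrays. In liver 42 member probe sets (33 genes) passed, and in backfat 22 (19 genes). All 22 of these also passed in liver, 20 passed in liver alone, and 18 passed in neither tissue. The 18 included 13 of the 14 steroid hormone probe sets, and 5 genes (CYP11A1, CYP17A1, CYP19A1, CYP27B1 and CYP8B1) had no probe set that passed. The highest intensity of any of the 18 on any array was 123.

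Tissue labels were checked against marker genes. The summed intensity of 7 adipocyte markers was 63509 to 94149 on backfat arrays and 2202 to 3833 on liver arrays, with no overlap. That of 16 hepatocyte markers was 369051 to 591648 in liver. In backfat it was 4598 to 15836 on 19 arrays and 120078 on low RFI restricted replicate 5, so results in backfat are given with and without that array where it matters. Without it the restricted backfat arrays still ran from 7589 to 15836 and the ad libitum ones from 4598 to 7999. Skeletal muscle transcripts (12 markers) varied widely in backfat, from 888 to 112050 in sum, with group medians of 62353 and 17244 in the low RFI line and 3212 and 2201 in the high RFI line, fed ad libitum and restricted respectively. Arrays numbered 1 and 2 had larger ratios of 3' to 5' actin signal than those numbered 3 to 5 (log2 means of 2.25 ± 0.28 (SD, n = 8) and 1.32 ± 0.19 (n = 12) in liver, 2.27 ± 0.55 and 1.57 ± 0.16 in backfat), and values within each set are printed beside the pooled ones.

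The enzymes were mostly liver transcripts. Of the 60 probe sets, 40 (66.7%) were higher in liver at an adjusted p below 0.05 (limma over all 23999 probe sets with Benjamini-Hochberg adjustment) and 4 (6.67%) were higher in backfat, against a background of 25.4% and 42.0% of all probe sets. The share called in either direction was 73.3%, against a background of 67.3%. The median log2 difference, liver minus backfat, was 2.24 over the members and -0.19 over all probe sets. Among the xenobiotic P450s 19 of 20 probe sets were higher in liver, among the GSTs 6 of 9, among the SULTs 2 of 3 and among the steroid hormone P450s 3 of 14. Those 3 and 1 of the 19, a CYP2C36 probe set, lay below the filter in both tissues, and the 1 steroid hormone probe set that passed it was not called.

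**Figure D1:**
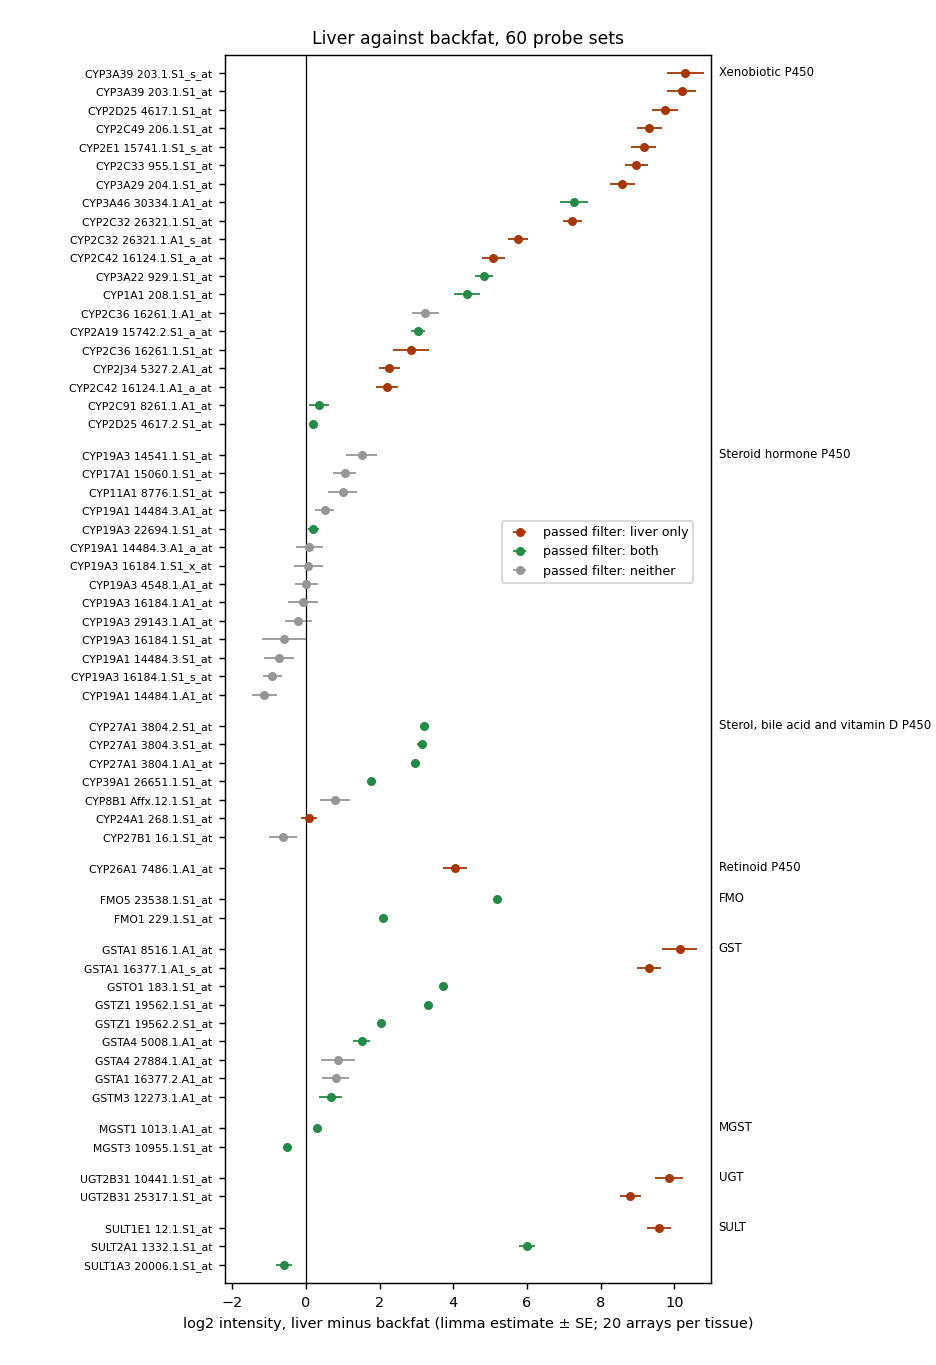
Liver minus backfat for the 60 probe sets, as the difference of mean log2 intensity (x axis, limma estimate ± SE, 20 arrays per tissue), grouped by enzyme class and coloured by the tissues in which the probe set passed the filter. Xenobiotic P450s, UGT2B31, GSTA1 and SULT1E1 lie farthest to the right; MGST3, SULT1A3 and some aromatase probe sets of low signal lie left of 0.

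For the 20 probe sets that passed in liver alone a fold is only a lower bound. It was taken against the higher of the probe set's own signal and the 40th percentile on each backfat array, and 18 of the 20 gave one above 1. These bounds ran from 1.76-fold to 284-fold with a median of 167-fold, and on 15 of the 20 every liver array exceeded every backfat array. The 20 were picked for passing in liver and failing in backfat. Bounds above 1 and such separation are therefore favoured by the choice and are not separate evidence of a liver excess. CYP3A39, a P450 of the drug-oxidising CYP3A family, read from 21280 to 51838 in liver and was at least 284-fold higher there. CYP2E1, which oxidises ethanol and other small solvents, read from 23198 to 37781 and was at least 237-fold higher. CYP2C33 was at least 234-fold higher, CYP2C49 at least 203-fold, and CYP3A29 at least 187-fold. The glutathione transferase GSTA1 was at least 247-fold and 228-fold higher on its 2 probe sets that passed. UGT2B31, a glucuronosyltransferase, was at least 159-fold and 138-fold higher, and SULT1E1, the oestrogen sulfotransferase, at least 71.2-fold. At the low end of the group stood CYP2C36 (at least 1.76-fold), whose liver signal was itself low on some arrays, and CYP26A1 (at least 2.74-fold). CYP26A1 read 6.43 on 1 liver array, high RFI restricted replicate 5, and at least 216 on all others.

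Among the 22 probe sets measured in both tissues, 17 were higher in liver, 2 were higher in backfat and 3 did not pass the test. For 12 of the 22 every liver array exceeded every backfat array. The share of all probe sets with such separation was not computed. Neither this count nor the 15 of 20 above is therefore a result about these enzymes. CYP3A46 exceeded the percentile on only 5 of the 20 backfat arrays, so its fold is again a lower bound, at least 94.1-fold higher in liver. SULT2A1, which sulfates steroids and bile acids, exceeded it on 16 of the 20 and stood 63.8-fold higher in liver, and FMO5 on 19 of the 20 and 36.5-fold. Smaller differences were measured for GSTO1 (13.1-fold), for the 3 probe sets of the sterol hydroxylase CYP27A1 (7.85-fold to 9.22-fold) and for FMO1 (4.28-fold). GSTZ1, which also takes part in tyrosine breakdown, was 9.92-fold higher on one probe set and 4.10-fold on the other. CYP2D25 differed by probe set: Ssc.4617.1.S1_at passed in liver alone, at least 175-fold higher there, whereas Ssc.4617.2.S1_at read 818 to 1549.6 in liver and 745 to 1341 in backfat.

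A few members were near or above their liver level in backfat. MGST3, a membrane-bound glutathione transferase, ran from 6001 to 13496 in liver and from 10621 to 18668 in backfat, and was 1.43-fold higher in backfat (log2 -0.51, SE 0.09, limma adjusted p = 2.17e-06). MGST1, its relative in the endoplasmic reticulum and outer mitochondrial membrane, was 1.24-fold higher in liver (log2 0.32, SE 0.06), and this difference turned to -0.02 when the arrays were quantile normalized. SULT1A3, a phenol sulfotransferase, was 1.49-fold higher in backfat over all pigs (log2 -0.58, SE 0.22, limma adjusted p = 0.0176). That average covered opposite directions by diet. Fed ad libitum its median was 4177 in liver and 2583 in backfat, and under restriction it was 2259 in liver and 7714 in backfat. The other members called higher in backfat were 1 probe set each of the aromatases CYP19A1 and CYP19A3, both below the filter in both tissues.

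Backfat of low RFI restricted replicate 5 carried many of these liver transcripts. Over the 20 probe sets that passed in liver alone it had the highest signal of the 20 backfat arrays for 16, and 12 exceeded its 40th percentile. Their summed intensity was 20615 there and 508 to 1476 on the other 19 arrays, where 0 to 6 exceeded the percentile. CYP2E1 read 3962 against at most 92.9 on the others, CYP2C33 read 3253 against at most 146, and CYP3A39 (Ssc.203.1.S1_at) read 2358 against at most 171. The same array held the hepatocyte marker sum of 120078. The array that followed, high RFI restricted replicate 3 with 1476, was the one with 6 probe sets above its percentile.

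**Figure D2:**
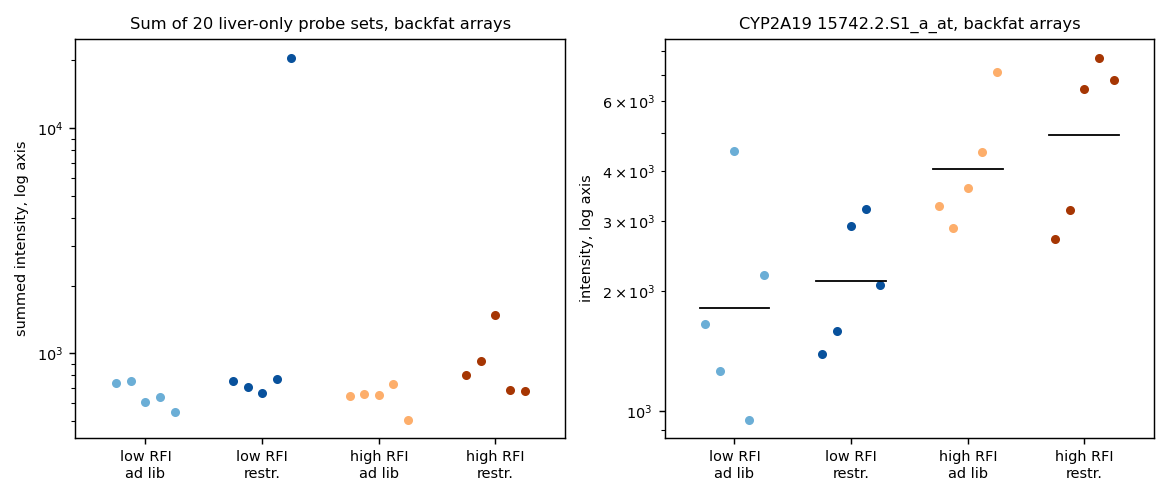
Left, the sum over the 20 probe sets that passed the filter in liver alone, on each of the 20 backfat arrays (y axis, intensity on a log scale; each point is a pig, numbers 1 to 5 from left to right within a group). Low RFI restricted replicate 5 stands at 20615 and the other 19 arrays between 508 and 1476. Right, CYP2A19 on the same arrays, with black bars for geometric means: the low RFI pigs lie between 954 and 4493 and the high RFI pigs between 2706 and 7721.

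CYP2A19, a P450 that takes part in breaking down skatole, had a clear signal in backfat. It read 954 to 7721 on the 20 backfat arrays, and 18502 to 33914 on 19 of the 20 liver arrays. It was 8.27-fold higher in liver (log2 3.05, SE 0.19). Its signal on the backfat array with liver transcripts was 2069.9, inside the range of the other 19. Low RFI restricted replicate 5 of the liver set read 4240 and stood alone below the other 19 liver arrays.

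Restriction changed some of these enzymes in backfat. Of 22 probe sets tested there, 7 (31.8%) passed an adjusted p of 0.05, with 2 higher and 5 lower in restricted pigs. The background was close, with 25.8% of all 15498 tested probe sets called, 15.1% higher and 10.7% lower, so the share of members that changed is not a result about these enzymes. The median log2 difference, restricted minus ad libitum, was 0.04 over the 22 and 0.08 over all tested. SULT1A3 and FMO1 rose. GSTO1, SULT2A1, CYP39A1, 1 of the 2 GSTZ1 probe sets and 1 CYP19A3 probe set fell.

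SULT1A3 made the largest change. Its lowest, median and highest intensities were 1763, 2583 and 4349 in the 10 pigs fed ad libitum, and 3943, 7714 and 9776 in the 10 restricted pigs. The sets touched only at their edges, with 9 of the 10 restricted pigs above every pig fed ad libitum. The rise was 2.68-fold (log2 1.42, SE 0.17, limma adjusted p = 1.08e-05), and it was called in both lines, at 1.41 in low RFI pigs and 1.44 in high RFI pigs. It stood at 1.26 on arrays numbered 1 and 2 and at 1.53 on those numbered 3 to 5. It kept its call under all 30 alternative settings. The pig annotation lists SULT1A1 as another name of this gene, and the array had 1 probe set for it.

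SULT2A1 moved the other way. It read 162, 320 and 561 (lowest, median, highest) in pigs fed ad libitum and 57.1, 146 and 942 in restricted pigs. The highest value, 942, belonged to the array with liver transcripts, and 5 restricted pigs lay below every pig fed ad libitum. The fall was 2.22-fold (log2 -1.15, SE 0.38, limma adjusted p = 0.0319), and without that array it was larger (log2 -1.48, SE 0.26, adjusted p = 0.000485). Within the sets of numbers it was -1.20 and -1.11, neither called. The call was lost in 12 of 30 alternatives, among them 9 that left out another single array, with adjusted p of 0.0503 to 0.0627. These were replicates 4 and 5 of high RFI ad libitum, 3 and 5 of high RFI restricted, 2 and 4 of low RFI ad libitum, and 1, 2 and 3 of low RFI restricted.

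FMO1 oxidises nitrogen and sulfur atoms of drugs and diet compounds. It read 2593, 3638 and 4972 in backfat of pigs fed ad libitum and 3984, 5187 and 7949 in restricted pigs. Of the restricted pigs 6 exceeded all pigs fed ad libitum. The rise was 1.39-fold (log2 0.47, SE 0.12, limma adjusted p = 0.00769), at 0.21 on arrays numbered 1 and 2 and 0.65 on those numbered 3 to 5. FMO5, which oxidises ketones, differed by 0.06 (SE 0.15, adjusted p = 0.800).

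Glutathione enzymes gave 2 of the falls. GSTO1, which reduces dehydroascorbate and methylated arsenic, read 1143, 2163 and 2823 in pigs fed ad libitum and 1135, 1441 and 2074 in restricted pigs. The ranges overlapped widely, and only 1 restricted pig lay below all pigs fed ad libitum. The fall was 1.44-fold (log2 -0.53, SE 0.15, limma adjusted p = 0.0125), with -0.44 and -0.59 in the sets of numbers. GSTZ1 probe set Ssc.19562.2.S1_at read 213, 275 and 327 against 144, 220.4 and 289, a 1.26-fold fall (log2 -0.33, SE 0.11, adjusted p = 0.0291; -0.40 and -0.28 within sets). This call was lost without any 1 of 5 arrays, at adjusted p of 0.0502 to 0.0539: high RFI restricted replicate 1, low RFI ad libitum replicates 2 and 4, and low RFI restricted replicates 1 and 5. The brighter GSTZ1 probe set Ssc.19562.1.S1_at differed by 0.02 (SE 0.10, adjusted p = 0.899), so the gene's probe sets disagreed. The other members of the class were not called: GSTA4 at -0.19 (SE 0.20), GSTM3 at 0.10 (SE 0.30), MGST1 at -0.14 (SE 0.08) and MGST3 at 0.01 (SE 0.09).

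P450s that act on the body's own sterols and steroids gave the remaining falls. CYP39A1, which hydroxylates oxysterols on the way to bile acids, read 239.7, 353 and 493 in pigs fed ad libitum and 204, 236 and 342 in restricted pigs. Of the restricted pigs 5 lay below every pig fed ad libitum. The fall was 1.37-fold (log2 -0.46, SE 0.12, limma adjusted p = 0.00753; -0.46 and -0.45 within the sets of numbers). It was -0.70 in high RFI and -0.21 in low RFI pigs, and the difference between the lines was not called (0.49, SE 0.24, adjusted p near 1, unadjusted p = 0.0499). CYP27A1, a mitochondrial sterol hydroxylase, did not pass the test on its 3 probe sets, at 0.42 (SE 0.21), 0.18 (SE 0.18) and 0.21 (SE 0.21).

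Aromatase converts androgens to oestrogens, and pigs carry several copies of its gene. CYP19A3 probe set Ssc.22694.1.S1_at read 332, 764 and 1162 in backfat of pigs fed ad libitum and 195, 400.2 and 604 in restricted pigs. Of the restricted pigs 3 lay below all pigs fed ad libitum. The fall was 1.89-fold (log2 -0.92, SE 0.22, limma adjusted p = 0.00438; -0.77 and -1.02 within the sets of numbers). The other 7 CYP19A3 probe sets did not pass the filter in either tissue and reached at most 109.7, and the 4 for CYP19A1 reached at most 71.1. The probe set that fell therefore gave a signal that no other probe set of the gene showed, and whether it reads aromatase was not tested.

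**Figure D3:**
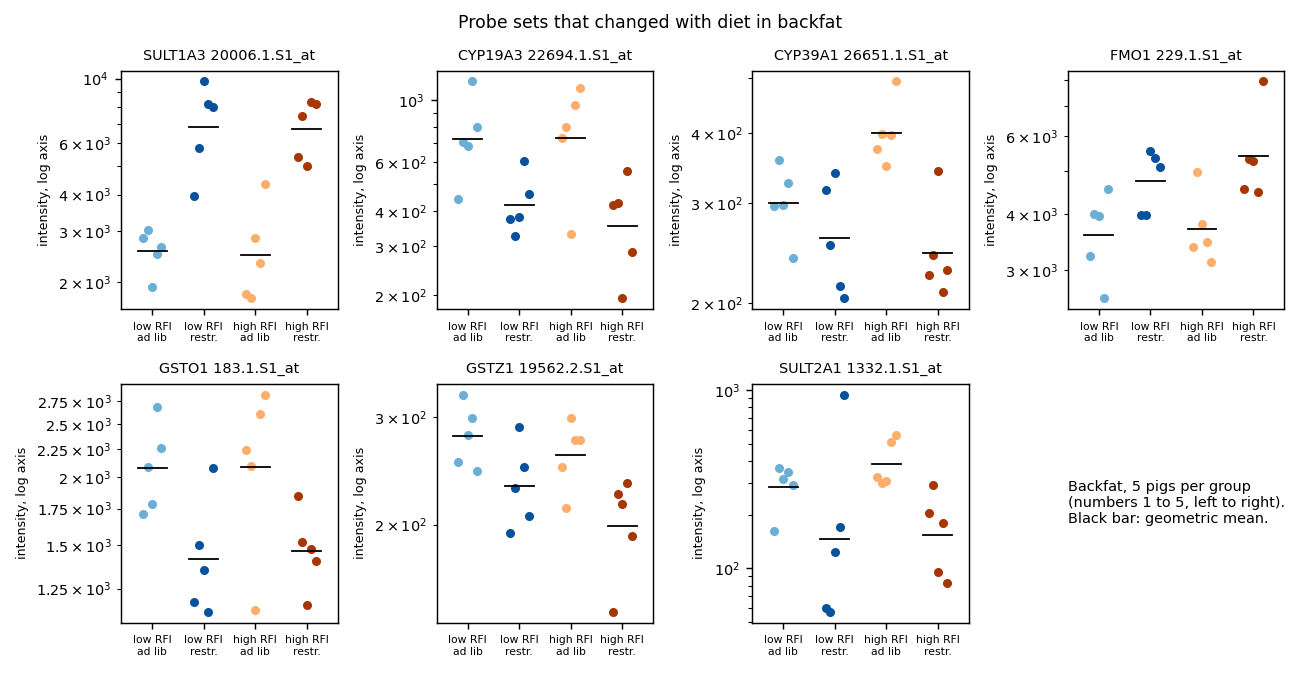
Intensity of the 7 probe sets that changed with diet in backfat, one panel each (y axis, intensity on a log scale), for 5 pigs in each of the 4 groups of line and diet; black bars are geometric means. SULT1A3 separates the diets almost fully, while GSTO1 and GSTZ1 overlap, and SULT2A1 has a single restricted pig at 942.

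None of the 6 xenobiotic P450 probe sets tested in backfat was called with diet, against a background of 25.8% of all tested. With so few tested, this is not a result about the class, and CYP2B22, left out by the rule, is not covered. CYP2A19 differed by 0.25 (SE 0.26), CYP1A1, the classic target of the aryl hydrocarbon receptor, by 0.39 (SE 0.51), CYP3A22 by -0.28 (SE 0.19), and CYP2C91, which the annotation lists as a pseudogene, by 0.33 (SE 0.21). CYP1A1 exceeded the 40th percentile on 7 of the 20 arrays, CYP2C91 on 5 and CYP3A22 on 13, so most CYP1A1 and CYP2C91 values lay below the filter level. CYP3A46 had the widest spread. It exceeded the 40th percentile on 5 of the 20 arrays and read 28.3 to 391 on 18 of them, and 4159 and 973 on high RFI restricted replicates 2 and 5, so that its difference of 1.10 (SE 0.72, limma adjusted p = 0.274) rested on few pigs. The sum of the liver-only probe sets on those arrays was 926 and 683, within the 508 to 1476 given above.

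Of the 2 RNA quality ratios, that of GAPDH moved with diet in backfat. The log2 ratio of 3' to 5' GAPDH signal was 1.19 ± 0.37 (SD, n = 10) in pigs fed ad libitum and 1.88 ± 0.52 (n = 10) in restricted pigs. The actin ratio differed little, at 1.8 ± 0.42 fed ad libitum and 1.9 ± 0.59 restricted. With the actin and GAPDH ratios as covariates only SULT1A3 of the 7 stayed called (log2 1.34, SE 0.21, limma adjusted p = 0.000793), CYP19A3 moved to -0.46 and was lost, and the other 5 kept their direction without passing (FMO1 0.34, GSTZ1 -0.35, CYP39A1 -0.37, GSTO1 -0.43 and SULT2A1 -0.93). With the mean of the muscle markers as a covariate, an alternative added after the data were seen, all 7 stayed called. Without low RFI restricted replicate 5 there were 6 calls, GSTZ1 being lost at an adjusted p of 0.0519. The hepatocyte marker sums given above were also higher in restricted backfat, and their part in these differences was not tested.

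In liver no member was called with diet. Of 42 probe sets tested, 0 passed the adjusted threshold in limma, against a background of 0.919% of 15677 probe sets. At an unadjusted p below 0.05 there were 7 (16.7%), against 12.4% of all tested. The median log2 difference was -0.08 over the members and 0.02 over all tested. CYP3A29 read 12971, 23497 and 26324 (lowest, median, highest) in pigs fed ad libitum and 22964, 25083 and 30188 in restricted pigs, a difference of 0.32 (SE 0.11, adjusted p = 0.177). GSTZ1 (Ssc.19562.2.S1_at, the probe set that fell in backfat) differed by -0.31 (SE 0.11, adjusted p = 0.221), FMO5 by -0.42 (SE 0.15, adjusted p = 0.224), CYP39A1 by -0.33 (SE 0.14, adjusted p = 0.327) and CYP2D25 by -0.24 (SE 0.11, adjusted p = 0.348). Calls appeared in 2 alternatives: FMO5 passed without high RFI ad libitum replicate 3 (log2 -0.54, adjusted p = 0.0338), and GSTZ1 passed with the 3' to 5' ratios as covariates (log2 -0.42, adjusted p = 0.0255).

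**Figure D4:**
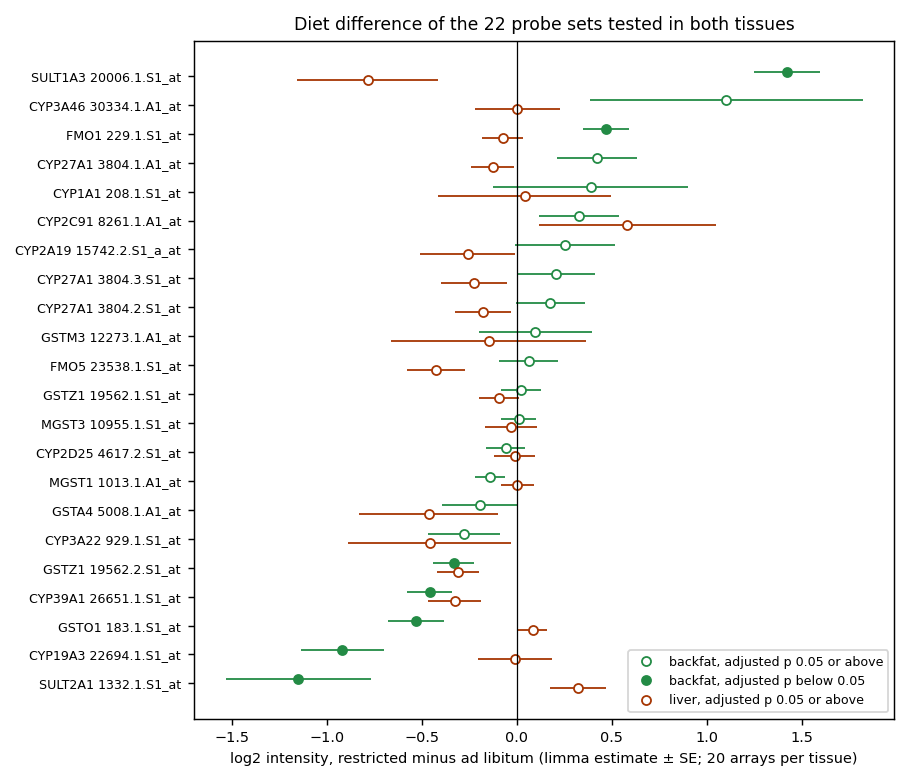
Diet difference of the 22 probe sets tested in both tissues (x axis, log2 intensity of restricted minus ad libitum pigs, limma estimate ± SE, 20 arrays per tissue), ordered by the backfat value; filled points passed an adjusted p of 0.05. In backfat 7 points are filled, and in liver none.

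The diet difference itself was compared between tissues in a fit over both. Of the 22 probe sets tested in both, 5 (22.7%) differed, 2 with the larger value in backfat and 3 with the lower, against a background of 10.9% of 14001 probe sets (4.53% and 6.36%). SULT1A3 rose in backfat, and its liver pigs read 762, 4177 and 6002 fed ad libitum and 562, 2259 and 6497 restricted, a liver difference of -0.78 (SE 0.37, adjusted p = 0.393). Its diet difference was 2.21 larger in backfat (SE 0.43, limma adjusted p = 0.000649; 2.38 and 2.09 within the sets of numbers). SULT2A1 had a liver difference of 0.32 (SE 0.15, adjusted p = 0.362), and the tissues differed by -1.47 (SE 0.43, adjusted p = 0.0205; -1.10 and -1.72). For GSTO1 the tissues differed by -0.61 (SE 0.17, adjusted p = 0.0146; -0.46 and -0.72) and for FMO1 by 0.55 (SE 0.17, adjusted p = 0.0268; 0.29 and 0.71). For CYP19A3 they differed by -0.91 (SE 0.31, adjusted p = 0.0479; -0.64 and -1.09), a call lost in 31 of 49 alternatives, 26 of which left out 1 array (adjusted p of 0.0517 to 0.0834). Without backfat low RFI ad libitum replicate 4 there were 3 calls, FMO1 being lost as well at an adjusted p of 0.0503. With the 3' to 5' ratios as covariates SULT1A3 (2.39, adjusted p = 0.000353) and GSTO1 (-0.55, adjusted p = 0.0403) stayed called, while SULT2A1 (-1.25, adjusted p = 0.0869), FMO1 (0.43, adjusted p = 0.135) and CYP19A3 (-0.50, adjusted p = 0.305) did not. SULT1A3 was called in both sets of numbers and SULT2A1 in arrays numbered 3 to 5, and the other 3 were called in neither set.

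Between the lines no member was called in the reported fit. In liver 0 of 42 passed the adjusted threshold in limma (background 0.0447%), and in backfat 0 of 22 (background 0.0194%). At an unadjusted p below 0.05 there were 2 in liver (4.76%, against 6.53% of all tested) and 2 in backfat (9.09%, against 7.78%). The smallest p belonged to CYP2A19 in backfat. It read 954, 1864 and 4493 (lowest, median, highest) in low RFI pigs and 2706, 4056 and 7721 in high RFI pigs, and 7 of the 10 low RFI pigs lay below every high RFI pig. The difference, low minus high RFI, was -1.19 (SE 0.26, unadjusted p = 0.000205, adjusted p = 0.190; -1.04 and -1.29 within the sets of numbers). With the replicate number as a block it was called (log2 -1.19, SE 0.21, limma adjusted p = 0.0448), and over the 30 alternatives the adjusted p ran from 0.0448 to 0.357. Muscle markers also differed between these groups, and with their mean as a covariate the difference was -1.18 (SE 0.29, adjusted p = 0.346). In liver CYP2A19 read 4240, 26282 and 33914 in low RFI pigs and 18502, 27926 and 32675 in high RFI pigs.

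The other line differences were smaller against their spread. In backfat GSTM3, a mu-class glutathione transferase, read 62.9 to 234 in low RFI and 52.8 to 342 in high RFI pigs (-0.67, SE 0.30, limma adjusted p = 0.602). CYP1A1, below the filter level on most backfat arrays, differed by -0.95 (SE 0.51), CYP27A1 (Ssc.3804.1.A1_at) by 0.32 (SE 0.21) and GSTZ1 (Ssc.19562.2.S1_at) by 0.16 (SE 0.11). In liver CYP2C32 probe set Ssc.26321.1.A1_s_at read 99.6, 446 and 870.5 in low RFI pigs and 70.8, 233 and 467 in high RFI pigs, with overlapping ranges (0.94, SE 0.36, adjusted p = 0.652). SULT1A3 differed by -0.77 (SE 0.37), GSTA4, which conjugates products of lipid peroxidation, by -0.73 (SE 0.36), CYP27A1 (Ssc.3804.2.S1_at) by -0.29 (SE 0.15) and CYP2D25 (Ssc.4617.2.S1_at) by 0.21 (SE 0.11), all with adjusted p of 0.764 or more.

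The response to restriction did not differ detectably between the lines for any member. In limma 0 of 42 passed the adjusted threshold in liver and 0 of 22 in backfat, against a background of 0.0% in both. At an unadjusted p below 0.05 there were 0 in liver (against 3.35% of all tested) and 1 in backfat (4.55%, against 1.57%). In liver the smallest p belonged to CYP2C36 (-3.26, SE 1.70), CYP3A29 (0.41, SE 0.21) and SULT1E1 (-0.54, SE 0.29). In backfat they were CYP39A1, given above, GSTM3 (1.22, SE 0.59) and CYP1A1 (-1.45, SE 1.03), the last below the filter level on most arrays.

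Members differed far more in how much they varied between pigs of a group. In liver the SD of log2 intensity within groups was lowest for GSTO1 (0.16), CYP2E1 (0.17), CYP2C33 (0.18), CYP3A39 (Ssc.203.1.S1_s_at, 0.19) and MGST1 (0.20), whose highest pig exceeded the lowest by 1.53-fold to 1.64-fold. At the other end CYP2C36 (Ssc.16261.1.S1_at) ran from 8.04 to 1835 (SD 2.18). Low RFI pigs ran from 14.4 to 899.7 fed ad libitum and from 27.3 to 1304 restricted, and high RFI pigs from 8.04 to 167 and from 67.8 to 1835. CYP1A1 ran from 174 to 6196 (SD 1.16), CYP2C32 (Ssc.26321.1.S1_at) from 237 to 5199.8 (SD 1.19), CYP2J34 from 92.4 to 2108 (SD 1.24), CYP3A22 from 370.2 to 8256 (SD 1.09) and CYP26A1 from 6.43 to 686 (SD 1.32). The wide CYP26A1 range rested on 1 pig, high RFI restricted replicate 5 at 6.43, as all others read 216 to 686.

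The median SD was 0.36 over the 42 members and 0.34 over all tested probe sets in liver, and 0.42 over the 22 members against 0.31 in backfat. Among bright probe sets, with a mean of at least 10000 in liver, it was 0.25 over 18 members and 0.18 over all 369. CYP3A22 was also read higher on liver arrays numbered 1 and 2 than on most others, with 7 of those 8 between 5398 and 8256 and the eighth at 370.2, against 1070 to 4124 on the 12 arrays numbered 3 to 5. Some liver arrays were the lowest of 20 for several of the 42 member probe sets. Low RFI restricted replicate 5 was lowest for 12 and highest for 4, and high RFI ad libitum replicate 3 was lowest for 9 and highest for 0. Genes with several probe sets count more than once. The shares over all tested probe sets were not computed, so these counts are not a result about these enzymes.

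**Figure D5:**
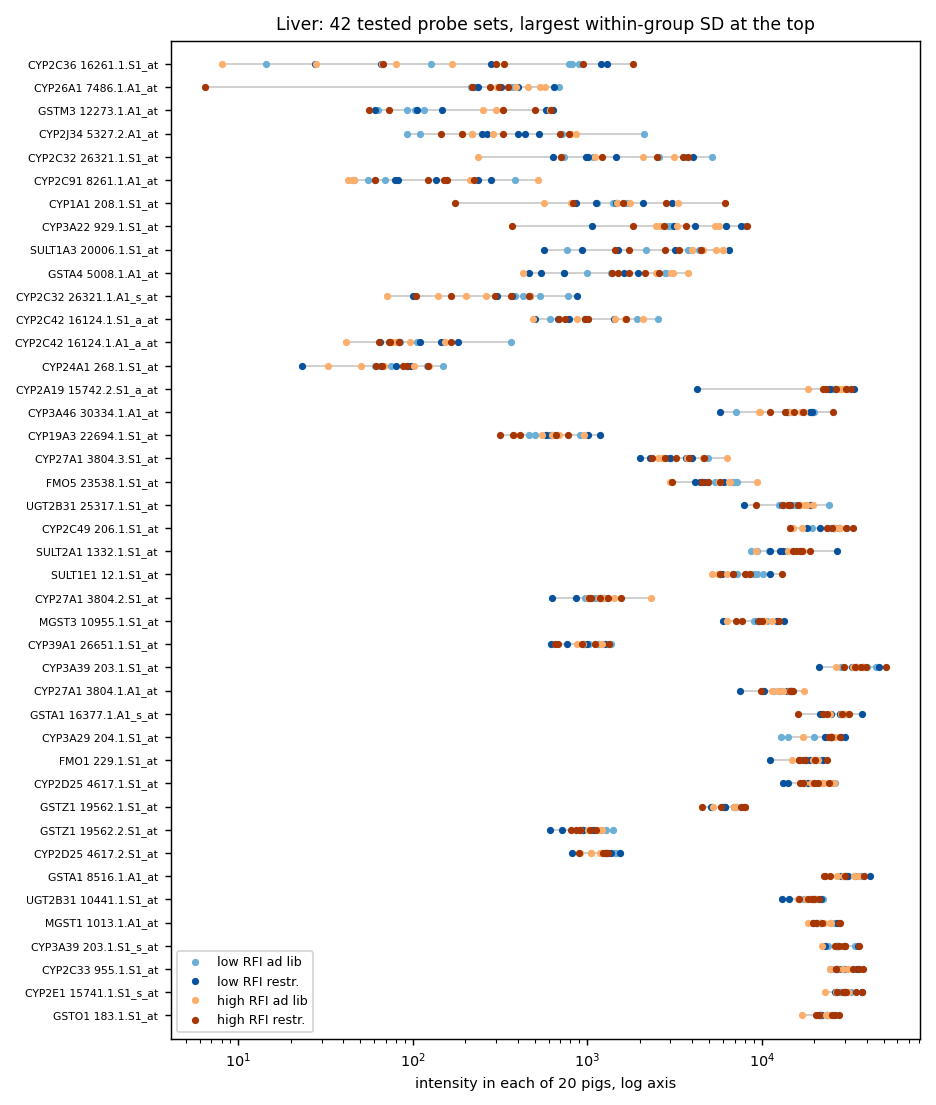
Liver intensity of the 42 tested probe sets in each of the 20 pigs (x axis, log scale), ordered by within-group SD with the largest at the top and coloured by line and diet. CYP2C36 spans 8.04 to 1835, while GSTO1 at the bottom spans 16985 to 27923.

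No pair of the variable liver members passed a test of correlation. Among 11 probe sets with an SD of 0.9 or more, a limit set after the data were seen, 55 pairs were correlated over the 20 liver arrays after group means were removed, and 0 passed an adjusted p of 0.05 (100000 permutations within groups, two-sided). The smallest p was that of CYP26A1 and CYP1A1, with Pearson r = 0.75 (permutation p = 0.00884, adjusted 0.260) and Spearman rho = 0.54 (permutation p = 0.0148, adjusted 0.291). Without the 2 pigs farthest from the CYP26A1 median r was 0.43, and it was 0.51 over the 8 arrays numbered 1 and 2 and 0.80 over the other 12. CYP2J34 and CYP2C91 gave r = 0.58 (adjusted permutation p = 0.260), with 0.97 on arrays numbered 1 and 2 and -0.13 on the others. CYP2C36 and CYP2C32 (Ssc.26321.1.S1_at) gave r = 0.50 (adjusted 0.260), with 0.95 and 0.29. The 2 probe sets of CYP2C32 gave only r = 0.55 (adjusted 0.260). As even this pair of 1 gene was not called, the lack of calls does not show that members varied separately.

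Genes that serve these enzymes were examined in 5 lists, with the brightest probe set of each gene. In liver none of 57 tested genes was called with diet or line in limma. At an unadjusted p below 0.05 there were 11 and 6, against 12.4% and 6.53% of all tested probe sets. In backfat none of 46 was called with line, and 6 had an unadjusted p below 0.05, against 7.78% of all tested. Leaving out 1 liver array gave 1 call with diet (low RFI restricted replicate 3 or 4, or high RFI ad libitum replicate 3) or 2 (low RFI restricted replicate 5). With diet in backfat 5 rose and 11 fell of the 46, against the background of 15.1% and 10.7% given above. With the 3' to 5' ratios as covariates, an alternative added for these genes after the data were seen, 11 of the 16 stayed called. The 5 that did not were UROD (-0.39, limma adjusted p = 0.0626), NQO2 (-0.36, adjusted p = 0.0633), EPHX1 (-0.64, adjusted p = 0.136), SLC22A3 (0.41, adjusted p = 0.169) and AHR (0.33, adjusted p = 0.248). On arrays numbered 1 and 2 there were 4 calls and on those numbered 3 to 5 there were 11. Of 10 genes for P450 partner proteins and haem metabolism, 4 fell and none rose, with a median of -0.31 against 0.08 over all tested. CYB5B, a cytochrome b5 of the outer mitochondrial membrane, fell from a median of 1064 to 469.6 (log2 -1.16, SE 0.18), and ALAS1, which starts haem synthesis, from 1193 to 807 (-0.58, SE 0.11). UROD (-0.50, SE 0.11) and FECH (-0.34, SE 0.08), later steps of the same pathway, fell too.

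Of 10 genes that supply cofactors for conjugation 3 fell and 1 rose. PGD, an NADPH-forming enzyme of the pentose phosphate pathway, fell from a median of 5463 to 2073 (log2 -1.39, SE 0.16), AHCY by 0.85 and GCLM, the modifier subunit of glutathione synthesis, by 0.61, while MAT2A, which makes S-adenosylmethionine, rose by 0.59. Among 16 other enzymes of oxidation and conjugation 4 fell and none rose. NQO1, a quinone reductase, fell from 2789 to 947 (log2 -1.28, SE 0.17), EPHX1, the microsomal epoxide hydrolase, by 0.78, ALDH1A1 by 0.71 and NQO2 by 0.34. Of 5 regulators the glucocorticoid receptor NR3C1 (0.39, SE 0.11) and the aryl hydrocarbon receptor AHR (0.46, SE 0.14) rose. Of 5 transporters ABCG2, an efflux pump for drugs (0.55, SE 0.10), and SLC22A3, an organic cation carrier (0.54, SE 0.15), rose. The lists' medians were -0.17 for cofactors, -0.10 for other enzymes, 0.13 for regulators and 0.39 for transporters.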

How the data were processed

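Each of the 40 arrays was deposited as 1 column of intensity values of 24123 probe sets. The submitters' processing notes name affy and MAS5, without versions or roles, and the trimmed means near 500 were measured on the deposited values. After 124 control probe sets were removed, log2 of the deposited intensity was taken with no further scaling or offset. Symbols came from the platform annotation, and 37 of 38 genes were found in the RefSeq table by gene ID. Sequences of the genes were not used here.

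Within each tissue limma 3.58.1 (R 4.3.3) fitted 4 groups of line and diet, with eBayes and an intensity trend, after a filter on low values (above the array's 40th percentile on at least 5 arrays). Diet and line effects are averages over the other factor. Fits over both tissues used all 40 arrays, with no filter for liver against backfat. P-values were adjusted by Benjamini-Hochberg over all probe sets tested and called below 0.05. They measure the spread between these arrays, and fits over both tissues treat arrays as independent although pigs may be shared. The fit was also run on simulated arrays with known changes and noise independent between arrays. These held no shared deviation of same-numbered arrays and no shift of RNA quality with diet. That run therefore does not show how the fit behaves under either.

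Named members are those called in a comparison, or the 5 with the smallest p where fewer than 5 were called (3 for the interaction), and for tissues the brightest and the most backfat-sided. Others were named to complete a class. Members, lists and array sets were chosen with earlier results of these data known. Alternatives were quantile normalization, no filter or a stricter one, an offset, no trend, a replicate block, each set of numbers, the 3' to 5' ratios, each array left out and, added later, a muscle covariate and the same settings for the pathway genes. Depth does not apply to arrays, and their number limits the precision. Figures used matplotlib 3.10.9.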

Additional observations from a re-analysis of the deposited data

Results flagged for a closer look

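In groups of 5 pigs, a single array stood apart from the other 4 in 7 of 108 groups examined (6.48%), where chance alone flags about 1 in 20. The groups examined were those of probe sets named for diet, line, their interaction or diet by tissue, so this is not a share over all members. CYP26A1 and CYP2A19 in liver, whose single low arrays are given above, were not among them. CYP3A29 in liver was lowest at 17350 in high RFI ad libitum replicate 3, with the other 4 at 24570 to 26320, and highest at 28300 in high RFI restricted replicate 4, with the others at 24440 to 25120. FMO5 in liver was lowest at 5379 in low RFI ad libitum replicate 1 (others 6746 to 7240). CYP2D25 (Ssc.4617.2.S1_at) in liver was lowest in replicate 5 of both restricted groups, at 892.3 in high RFI (others 1227 to 1309) and 818.2 in low RFI (others 1280 to 1533). GSTA4 in liver was lowest at 426 in high RFI ad libitum replicate 3 (others 2482 to 3768). SULT2A1 in backfat was lowest at 162.3 in low RFI ad libitum replicate 1 (others 294.5 to 367). The diet difference was not the same in backfat and liver for 5 members by limma's test of the difference: SULT1A3 (2.21), FMO1 (0.55), GSTO1 (-0.61), SULT2A1 (-1.47) and CYP19A3 (-0.91), each as backfat minus liver on the log2 scale.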

How the results depend on the processing

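Liver calls with diet numbered 0 in the reported fit, 1 with the 3' to 5' ratios as covariates, and 0 to 1 when each array was left out. Backfat calls with diet numbered 7 as reported, 1 on arrays numbered 1 and 2, 3 on arrays numbered 3 to 5, 1 with the 3' to 5' ratios, and 5 to 7 when each array was left out. The smaller sets hold fewer pigs, and the cause of the loss with the ratios was not tested. Differences of the diet effect between tissues numbered 5 as reported, 1 and 2 in the sets of numbers, 2 with the ratios, and 3 to 5 when each array was left out (3 without backfat low RFI ad libitum replicate 4). Liver against backfat gave 44 as reported and 38 to 48 under all alternatives. 4 tissue differences, liver minus backfat, changed sign: MGST1 with quantile normalization (-0.0233), CYP19A3 (Ssc.22694.1.S1_at) with the ratios (-0.14), and CYP27B1 (0.24) and CYP19A3 (Ssc.16184.1.S1_at, 0.26) on arrays numbered 1 and 2; the causes were not tested. Deviations from group means of same-numbered arrays had a median correlation of 0.183 in liver and 0.202 in backfat, and exceeded 0.1 in 26 and 23 of 30 pairs (lowest -0.00429 and 0.0198). For arrays of different number the medians were -0.0764 and -0.0546, with 27 and 23 of 120 pairs above 0.1. Arrays of a number thus deviated together on average, but not every pair passed 0.1 and the labels name no shared source, so the block was kept as an alternative. With the replicate block 1 member was called by line in backfat, CYP2A19 (adjusted p = 0.0448), where the reported fit called 0. Pathway genes called with diet in liver numbered 0 as reported, 1 with the stricter filter, 1 with the replicate block, 2 with the ratios and 0 to 2 when each array was left out; in backfat they numbered 16 as reported, 4 on arrays numbered 1 and 2, and 16 to 22 when each array was left out. Member line calls in liver and interaction calls in both tissues were 0 under every alternative run.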

Other observations

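CYP1A1 was highest of all arrays in high RFI restricted replicate 3 in both tissues, at 6196 in liver and 508 in backfat, where the medians were 1482 and 72.5. That backfat array also had the second highest hepatocyte marker mean (log2 8.34, against 5.09 to 7.12 on 18 arrays) and the second highest sum of liver-only probe sets (1476), and their part in the CYP1A1 value was not tested. The labels do not say whether these arrays came from 1 pig. In liver GSTM3 ranged from 55.8 to 636, and CYP2C91 from 42.4 to 524. In liver low RFI restricted replicate 5 CYP2A19 was lowest of 20 arrays at 4240, while SULT2A1 was highest at 26952 and SULT1A3 highest at 6497.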
